A study of Homo sapiens with 16 samples.

Results

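The regions described here carried an H3K27ac peak in CAOV4cis cells and none in CAOV4 cells. To find them, autosomal peaks of both lines that shared 1 bp or more were merged, and merged regions over 2000 bp with a peak in CAOV4cis only were kept. This left 2397 regions of the 15549 merged regions over 2000 bp, or 15.4%, and of 32191 merged regions of any width. They are called gained regions below, in the sense that the peak list of the resistant line holds a peak there and the list of the parental line does not. The same steps gave 2092 lost regions with a peak in CAOV4 only, or 13.5%, and 11060 common regions with a peak in both lines. The lists of this pair chose the gained regions, so their presence in CAOV4cis and absence from CAOV4 are not results, and neither is any value of this pair tested.

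CAOV4 is a cell line of high-grade serous epithelial ovarian cancer (EOC), and CAOV4cis is its derivative selected by prolonged exposure to rising doses of cisplatin (cPt), a platinum drug that crosslinks DNA. A2780 is an EOC line of endometrioid origin and A2780cis its cPt-resistant counterpart. Both resistant lines were kept in medium with cPt and are labelled as cisplatin treated, so that the inherited state and the presence of the drug cannot be told apart. A2780 cells were also profiled with shMBD3.26 or shMBD3.232, a pair of doxycycline-induced shRNAs against MBD3, after 1 week of knockdown and sorting for a GFP reporter. MBD3 is a subunit of the NuRD complex, which combines histone deacetylase and nucleosome remodeling activity. Cells with a control shRNA were not analysed here, so the shRNA lists are set against untransduced, unsorted A2780 cells. H3K27ac was listed in all of these cells and H3K9ac in A2780 and A2780cis, with 1 library per condition. No difference between conditions therefore has a replicate check and no p-value is given. Each line is a single culture of 1 tumor model and says nothing of other tumors.

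H3K27ac, acetylation of lysine 27 on histone H3, is placed by the acetyltransferases p300 and CBP and removed by deacetylases, among them those of NuRD. It marks active promoters and active enhancers, the distal elements to which transcription factors bind and from which they act on a promoter. H3K9ac occurs at many of the same elements and is strongest near active transcription start sites. Broad or closely spaced H3K27ac domains are often described as super-enhancers and lie near genes that define a cell's identity. An enhancer that is active in 1 cell type is often silent in another, whereas many promoters are active in most cells.

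The deposited lists give the start and end of each peak and no height. On autosomes the CAOV4 and CAOV4cis lists held 22826 and 24660 peaks, of which 12126 and 12739 were over 2000 bp. The other lists held 15058 to 27932 autosomal peaks. Chromosomes 20, 21 and 22 are empty in all lists used here, and the distal ends of chromosomes 1 to 12 are empty too. Peak boundaries fall on multiples of 200 bp, and within a list no gap is under 1000 bp. Neither this layout nor the empty stretches are the usual output of a peak caller, and the step that made them is not given in the sources used here. Widths, gaps and single peaks are therefore those of the lists and may not be those that were called. Read depth at a peak is unknown. Intervals are 95% Wilson intervals of a share or Newcombe intervals of a difference of shares. They cover counting error only, and regions are not replicates of a condition. Positions are in the GRCh37 (hg19) build that the labels name. An annotation of that build was not used here, so no gene is assigned to a region, and the cell identity of the lines could not be checked against marker genes.

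Gained regions were narrow beside common ones. Every one of them was a single CAOV4cis peak, which the merging fixes, since peaks of the same list do not overlap. Their median width was 3000 bp, with quartiles of 2400 and 3800 bp and a range of 2200 to 10400 bp. There were 1347 regions of 2200 to 3000 bp and 184 over 5000 bp. Lost regions had the same median and quartiles but reached 19000 bp, and common regions had a median of 5200 bp. In all, gained regions covered 7.88 Mb, or 8.35% of the length of all regions over 2000 bp, although they made up 15.4% of their number. Common regions join peaks of both lines, up to 14 in a region, so the merging sets part of these differences in width and length. Just inside the width limit were 354 regions of 2200 bp, and just outside it were 398 CAOV4cis-only regions of 2000 bp. Below the limit there were 8602 further CAOV4cis-only regions, and at any width 34.2% of merged regions were CAOV4cis-only.

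Many gained regions lay beside acetylated chromatin of the parental line. The nearest CAOV4 peak was at a median distance of 8000 bp, with quartiles of 2400 and 27400 bp. It was within 5 kb of 973 gained regions, or 40.6% (38.6% to 42.6%), and directly abutted 63 of them. A CAOV4 peak lay within 50 kb of 84.6% (83.1% to 86.0%). Lost regions had the same median distance to CAOV4cis peaks, and 40.3% (38.3% to 42.5%) of them had one within 5 kb. A gained region in this sense can thus be a new peak at the border of an existing acetylated domain as well as an isolated one, and both kinds are separated below.

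The question then was which state these regions had in the other EOC model, whose lists took no part in the choice. In A2780, 890 gained regions overlapped an H3K27ac peak, or 37.1% (35.2% to 39.1%), against a background of 58.4% of all regions over 2000 bp. In A2780cis these were 804, or 33.5% (31.7% to 35.5%), against 55.7%. With shMBD3.26 they were 792, or 33.0% (31.2% to 35.0%), against 55.4%, and with shMBD3.232 748, or 31.2% (29.4% to 33.1%), against 53.8%. H3K9ac peaks lay at 612 gained regions in A2780, or 25.5% (23.8% to 27.3%), against 47.6%, and at 564 in A2780cis, or 23.5% (21.9% to 25.3%), against 45.1%. In each of the 6 lists gained regions were thus below the background, which consists mostly of common regions. Common regions had a peak in 66.6% in A2780, 64.0% in A2780cis, 63.9% with shMBD3.26 and 62.1% with shMBD3.232.

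**Figure D1:**
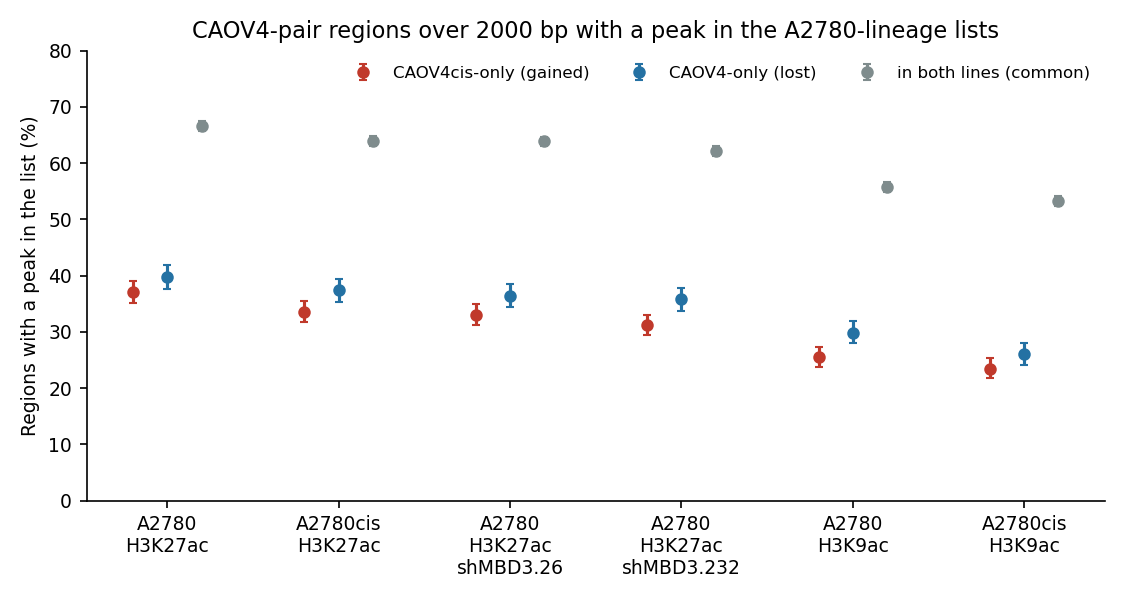
Share of CAOV4-pair regions over 2000 bp with a peak in each A2780-lineage list, for gained (n = 2397), lost (n = 2092) and common regions (n = 11060); points are shares in percent and bars 95% Wilson intervals. Gained and lost regions lie close together at 23.5% to 39.8%, and common regions lie above both in all 6 lists.

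Gained regions were closer to lost regions than to common ones. Gained minus common was −29.5 points (−31.6 to −27.3) in A2780 and between −30.9 and −29.8 in the other 5 lists. The difference of gained minus lost was −2.69 points (−5.54 to 0.163) in A2780 and −3.84 points (−6.64 to −1.03) in A2780cis. For shMBD3.26 it was −3.38 (−6.17 to −0.593), and the shMBD3.232 list gave −4.60 (−7.36 to −1.83). For H3K9ac it was −4.34 (−6.97 to −1.72) in A2780 and −2.52 (−5.06 to 0.00686) in A2780cis. These differences moved with the chromosomes on which the classes lay. When the lost regions were weighted to the chromosome numbers of the gained regions, 37.1% of them had an A2780 peak, as did 37.1% of the gained regions. In A2780cis the weighted share of lost regions was 34.6% beside 33.5%, with shMBD3.26 33.8% beside 33.0%, and with shMBD3.232 33.1% beside 31.2%. For H3K9ac it was 27.5% beside 25.5% in A2780 and 23.8% beside 23.5% in A2780cis. The same weighting left common regions at 66.4% in A2780.

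Wider gained regions were listed in A2780 more often than narrow ones. A peak counted at an overlap of 1 bp, so a wider region can meet one by its length alone. The part of this in the shares by width was not tested. Gained regions of 2200 to 2400 bp had an A2780 H3K27ac peak in 29.2%, those of 2600 to 3000 bp in 36.9%, those of 3200 to 4000 bp in 41.8% and those over 4000 bp in 42.5%. In A2780cis the shares were 26.7%, 32.1%, 38.9% and 38.4% in the same order. Lost regions followed this order over the first 3 bins, with 37.4%, 40.4% and 43.8% in A2780, and lay at 37.3% over 4000 bp. In A2780cis they had 33.7%, 37.6%, 42.2% and 36.3%. In the narrowest bin gained regions were below lost ones by 8.20 points in A2780, with an interval of the difference of −13.4 to −2.92. Over 4000 bp the difference was 5.22 points (−1.43 to 11.8), which includes 0. Common regions stayed above both classes in each width bin, from 53.6% to 68.8% in A2780 and from 53.6% to 65.6% in A2780cis.

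**Figure D2:**
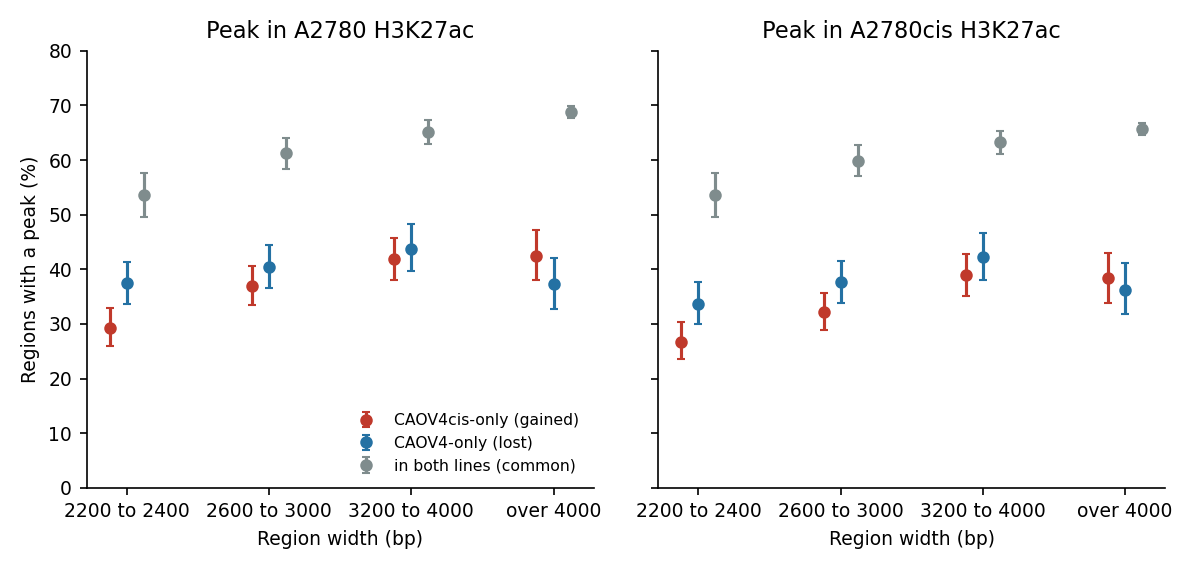
Share of regions with an A2780 (left) or A2780cis (right) H3K27ac peak in 4 bins of region width in bp, by class; points are percent and bars 95% Wilson intervals. In A2780 the gained regions go from 29.2% to 42.5% with width, and the common regions are above 50% in every bin.

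Across the 4 A2780-lineage H3K27ac lists, the gained regions, like the other classes, fell mainly into a pair of states. No peak in any of the 4 lists was found at 1307 of them, or 54.5% (52.5% to 56.5%), against a background of 35.1%. A peak in all 4 lists was found at 574, or 23.9%, against a background of 47.9%. Of the remainder, 240 had a peak in 1 list, 130 in 2 and 146 in 3. With H3K9ac included, 1234 regions were empty in all 6 lists, or 51.5%, against 33.1%, and 383 had a peak in all 6, or 16%, against 37.4%. For lost regions, 51.7% were empty in the 4 lists and 28.3% were listed in all 4. All or none of the 4 lists together took in 78.5% (76.8% to 80.1%) of gained regions, 79.9% of lost, 84.6% of common and 83.0% of all regions over 2000 bp. A division into these states was thus general to the lists, and gained regions differed from common ones in how many fell on the empty side.

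**Figure D3:**
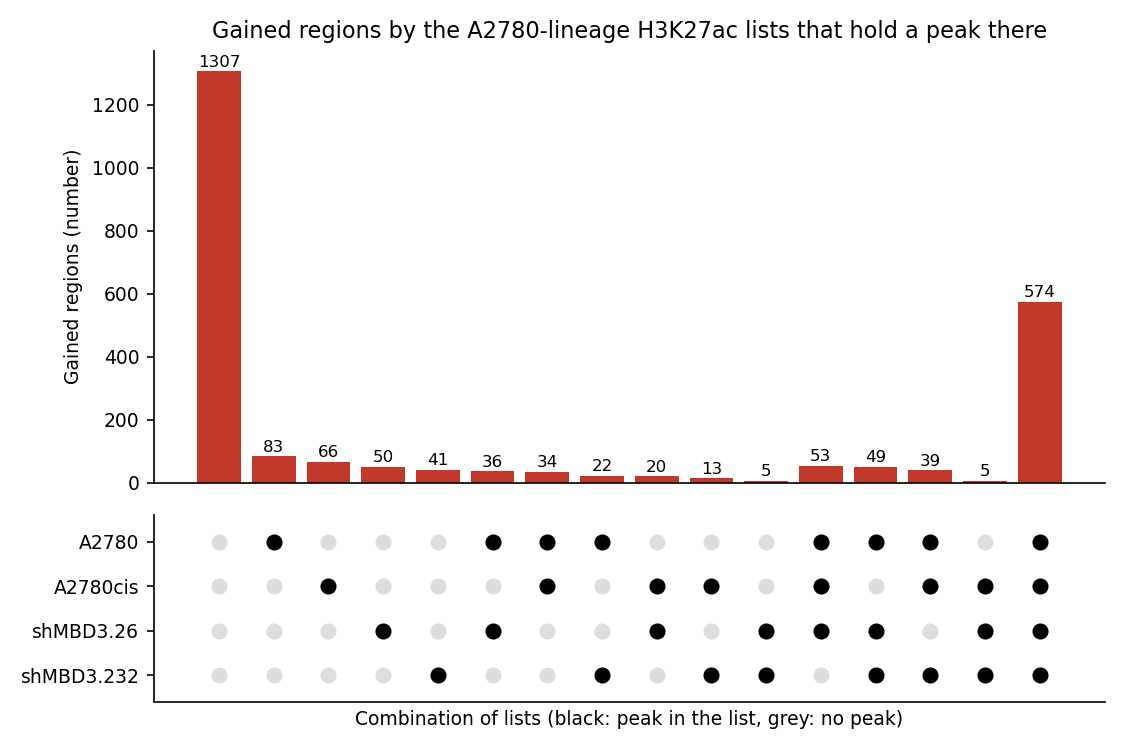
Number of gained regions in each of the 16 combinations of the A2780, A2780cis, shMBD3.26 and shMBD3.232 H3K27ac lists; black dots mark the lists with a peak and grey dots those without. The bars for no list (1307) and all 4 lists (574) exceed every other combination, of which A2780 alone is the most frequent with 83.

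Gain in the serous model was then set against gain in the endometrioid model. Of the gained regions, 104 were also A2780cis-only in the A2780 pair, or 4.34% (3.59% to 5.23%), against 3.86% of all regions over 2000 bp. The opposite state, a peak in A2780 and none in A2780cis, was found at 190, or 7.93% (6.91% to 9.08%), against 6.59%. Both lines had a peak at 700, or 29.2%, against 51.9%, and neither at 1403, or 58.5%, against 37.7%. Lost regions were A2780cis-only in 4.97% and A2780-only in 7.41%. The differences of gained minus lost were −0.633 points (−1.89 to 0.6) for A2780cis-only and 0.517 points (−1.06 to 2.07) for A2780-only, and both intervals include 0. A difference between gained and lost regions in how they changed in the A2780 pair was thus not detectable here. The order of these states was not stable. After the 4 A2780-lineage H3K27ac lists were cut to an equal number of their widest peaks, the shares were 5.13% A2780-only and 6.30% A2780cis-only. When a peak had to cover at least 50% of the gained region, they were 4.88% and 6.01%.

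Regions that changed in both models were often covered only in part. At the 104 A2780cis-only regions, the A2780cis peak covered a median of 58.1% of the region, and 61 were covered to 50% or more. At the 190 A2780-only regions the A2780 peak covered a median of 40.0%, and 81 reached 50%. In lost regions these medians were 44.6% and 38.1%, and in common regions 28.2% and 28.1%. Cover in part was thus not particular to gained regions. At the 700 regions listed in both lines, A2780 peaks covered a median of 81.5% and A2780cis peaks 88.9%. Of the A2780cis-only regions, 31 had H3K9ac in A2780cis, or 29.8% (21.9% to 39.2%), and 9 had it in A2780. A2780-only regions carried H3K9ac in A2780 at 63 of 190, or 33.2%, and in A2780cis at 20. For lost regions the shares with H3K9ac in the line with the H3K27ac peak were 23.1% (16% to 32.0%) and 38.7% (31.4% to 46.6%), and for common regions 26.3% and 38.5%, so the gained regions did not stand apart.

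Examples show both kinds of contact. The widest A2780cis-only region, chr15:96895601-96902400, was 6.80 kb wide, and an A2780cis peak of 0.400 kb covered 5.88% of it. At chr4:7034601-7040600, an A2780cis peak of 3 kb covered 33.3% of the 6 kb, and no other A2780-lineage list held a peak. The widest A2780-only region, chr17:47704001-47712200, was met only by an A2780 H3K27ac peak of 0.2 kb, which covered 2.44%, and by H3K9ac of A2780 over 31.7%. In contrast, chr1:108137001-108143400 lay wholly inside an A2780 peak of 12.6 kb. Peaks of 15.8 kb with shMBD3.26 and 19.2 kb with shMBD3.232 also covered it in full, H3K9ac of A2780 covered 50%, and neither A2780cis list held a peak there. This region thus gained a peak in CAOV4cis at a place where the A2780 model had lost one.

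Knockdown of MBD3 was described next, as the shRNAs target a complex that removes the mark. Because both shRNA lists are set against the same A2780 list, their values are given side by side. There were 10 gained regions that had peaks with both shRNAs but not in A2780, or 0.417% (0.227% to 0.766%), against a background of 0.714%. Lost regions had 1.00% and common regions 0.723%. The opposite state, a peak in A2780 that neither shRNA list held, applied to 117, or 4.88% (4.09% to 5.82%), against 3.88%. The A2780 list holds 27932 autosomal peaks and the shRNA lists 23270 and 18936, and both shares moved when the 4 H3K27ac lists were cut to an equal number of widest peaks. They were then 1.29%, or 31 regions, for both shRNAs without A2780 and 2.92% for A2780 without either shRNA. Peaks in A2780 and with both shRNAs were found at 623, or 26%, against 50%, and a peak with 1 shRNA only at 274, or 11.4%, against 7.83%. Regions present in A2780 and with neither shRNA were mostly covered in part, with a median of 27.3% of the region under an A2780 peak of median width 1200 bp. The median cover was 27.3% in lost and 15.8% in common regions of this state.

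The shRNA lists differed from each other at the gained regions. Of gained regions with a peak with shMBD3.26, 79.9% (77.0% to 82.6%) also had one with shMBD3.232, and in the opposite direction the share was 84.6% (81.9% to 87.0%). The shares were 86.6% and 88.1% in lost and 93.3% and 95.9% in common regions. A2780cis-only gained regions had a peak with shMBD3.26 at 25 of 104, or 24.0% (16.8% to 33.1%), and with shMBD3.232 at 18 of 104, or 17.3% (11.2% to 25.7%). A2780-only gained regions had one at 85 of 190, or 44.7% (37.8% to 51.8%), and at 71 of 190, or 37.4% (30.8% to 44.4%). Where neither A2780 nor A2780cis had a peak, shMBD3.26 had one at 3.92% and shMBD3.232 at 3.28% of 1403 regions. Lost regions in these states had like shares, with 25% and 24.0% of A2780cis-only, 44.5% and 41.9% of A2780-only and 4.07% and 3.20% of regions in neither line. Common regions had 25.8% and 20.7%, 51.2% and 46.0%, and 4.90% and 3.15%. Of the 104 A2780cis-only gained regions, 66 had no peak with either shRNA, or 2.75% of all gained regions, against a background of 2.45%.

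Among the 10 regions with both shRNAs and none in A2780, the 5 widest were chr16:2700601-2705800, chr17:55908401-55913000, chr1:21965201-21968000, chr5:126180801-126183600 and chr9:22008401-22011000. At the chromosome 5 region, the shMBD3.232 peak of 3.6 kb covered 100% of its 2.80 kb and the shMBD3.26 peak 35.7%, with no A2780cis peak. On chromosome 9, shMBD3.26 and shMBD3.232 peaks covered 46.2% and 53.8% of the region, and an A2780cis peak covered 53.8%. On chromosome 17, A2780cis covered 56.5%, and H3K9ac of A2780 covered 47.8% although no A2780 H3K27ac peak was listed. Of the regions with an A2780 peak and none with the shRNAs, chr11:71714401-71721000 stood out by an A2780cis peak of 8.40 kb that covered 63.6%, beside 12.1% for A2780.

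The 2 marks went together in most places. Gained regions with an A2780 H3K27ac peak had an H3K9ac peak in 60.6% (57.3% to 63.7%), and those with an A2780cis H3K27ac peak in 64.3% (60.9% to 67.5%). For lost regions these shares were 66.5% and 66.2%, and for common regions 80.2% and 81.9%. H3K9ac without H3K27ac was rare, at 73 of 1507 gained regions in A2780, or 4.84%, and at 47 of 1593 in A2780cis, or 2.95%. Where a peak was present, A2780 H3K27ac peaks covered a median of 72.7% of the gained region and 257 of the 890 in full, or 28.9%. Lost regions had a median of 83.3% and 38.7% in full, and the wider common regions 73.1% and 21.0%. A2780cis peaks, which are wider, covered a median of 85.7% of gained regions and 312 of 804 in full, beside medians of 90.2% in lost and 78.8% in common regions. H3K9ac peaks covered less of the gained regions, with medians of 61.5% in A2780 and 71.4% in A2780cis. For H3K9ac these were 66.7% and 78.6% in lost and 55.3% and 62.9% in common regions. H3K9ac was not analysed here in CAOV4 or CAOV4cis.

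Isolated gained regions, those over 50 kb from a CAOV4 peak, were in the A2780 lists more often than nearer ones. Over 50 kb from any CAOV4 peak there were 369 gained regions, and 181 of them had an A2780 peak, or 49.1% (44.0% to 54.1%). Within 5 kb the share was 35.5% (32.5% to 38.5%), and the difference of near minus far was −13.6 points (−19.5 to −7.68). The 1055 regions between, over 5 kb to 50 kb away, had an A2780 peak in 34.5% (31.7% to 37.4%). The A2780 share thus did not rise steadily with distance. All 4 H3K27ac lists held a peak at 41.2% of the isolated regions, 23.4% of those between and 18% of those within 5 kb. A2780-only regions went the other way, with 9.76% within 5 kb and 5.69% over 50 kb, and A2780cis-only regions with 5.24% and 2.44%. The isolated regions lay more often on chromosomes 2, 18 and 19, with 17.3% of them there against 7.81% of those within 5 kb. Without these chromosomes, the shares with an A2780 peak were 45.6% (40.1% to 51.2%) over 50 kb and 32.4% (29.5% to 35.6%) within 5 kb. Between these distances it was 29.4% (26.6% to 32.5%), so the isolated regions remained the highest. Lost regions showed the same order for a peak in all 4 lists. These held a peak at 37.3% (32.1% to 42.9%) of lost regions over 50 kb from a CAOV4cis peak and at 23.5% (20.7% to 26.4%) of those within 5 kb. The A2780 list held one at 43.0% (37.5% to 48.7%) and 38.6% (35.4% to 42.0%), and these intervals overlap. At these distances lost regions were A2780-only in 3.67% and 9.95% and A2780cis-only in 3.67% and 5.69%.

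The state of gained regions in A2780 varied strongly between chromosomes. On chromosome 19, 94 of 128 had an A2780 peak, or 73.4% (65.2% to 80.3%). On chromosome 18 it was 19 of 28, or 67.9% (49.3% to 82.1%), on chromosome 2 74 of 112, or 66.1% (56.9% to 74.2%), and on chromosome 1 111 of 208, or 53.4% (46.6% to 60.0%). On the other chromosomes the share was 20.8% to 39.5%, the lowest being 27 of 130 on chromosome 8. The other classes on these chromosomes did not all lie at the same level. On chromosome 19, common regions had an A2780 peak in 90.3% and lost regions in 71.3%. On chromosome 2 they had one in 68.6% and 53.8%, and on chromosome 1 in 75% and 51.1%. On chromosome 18 they had one in 54.2% (45.3% to 63.0%) and 31.5% (20.7% to 44.7%), so that there the gained regions were not below the common ones. Chromosomes 2, 18 and 19 are also those where the CAOV4cis list is short beside the A2780 list. For each A2780 H3K27ac peak over 2000 bp, the CAOV4cis list held 0.441 such peaks on chromosome 18, 0.470 on chromosome 2 and 0.471 on chromosome 19. It held 1.27 on chromosome 8 and 1.39 on chromosome 14, where 25.7% of gained regions had an A2780 peak.

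Over the 19 chromosomes, the share of gained regions with an A2780 peak fell as this ratio rose, with a Pearson r of −0.85 and a Spearman rho of −0.93. Both measures contain the A2780 list, and chromosomes share the libraries, so this is a description. The same correlation was −0.64 and −0.67 for lost regions and −0.41 and −0.43 for common regions. The ratio counts CAOV4cis peaks, which lost regions lack by definition. A ratio with CAOV4 peaks was not examined, so the values for gained and lost regions are not on a like measure. Chromosomes 4 and 13 had ratios of 0.509 and 0.574 but shares of 39.5% each. On the 5 chromosomes with a ratio under 0.6, gained regions had an A2780 peak in 60.5% and lost regions in 54.7%, a difference of 5.76 points (−0.746 to 12.2). On the 8 chromosomes with a ratio of 1 or more the shares were 28.3% and 28.8%, a difference of −0.459 points (−4.39 to 3.43). Pooled over the 6 chromosomes between these limits, gained regions were below lost ones in all 6 lists. In A2780 the pooled shares were 39.0% and 42.9%, a difference of −3.93 points (−8.92 to 1.08). The pooled differences were −6.69 (−11.6 to −1.75) in A2780cis, −7.08 (−12.0 to −2.13) for shMBD3.26 and −8.31 (−13.2 to −3.41) for shMBD3.232. For H3K9ac they were −8.93 (−13.6 to −4.20) in A2780 and −4.53 (−9.08 to −0.00269) in A2780cis. The order did not hold on each of these chromosomes. In A2780, gained regions were below lost ones on chromosome 7, with 33.0% and 51.0%, and on chromosome 9, with 37.1% and 49.4%. They were above lost ones on chromosomes 1, 3, 6 and 15, with 53.4% and 51.1% on chromosome 1. In the outer groups, 2.07% and 5.60% of gained regions were A2780cis-only and 7.24% and 7.94% were A2780-only. The A2780cis-only share was likewise higher at a ratio of 1 or more in lost regions. In common regions it was 1.86% and 4.17%, so this order was not particular to gained regions. The A2780-only share was also higher there in lost regions, but lower in common regions, with 6.94% and 6.03%. The part of the unequal list lengths in these shares was not tested.

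**Figure D4:**
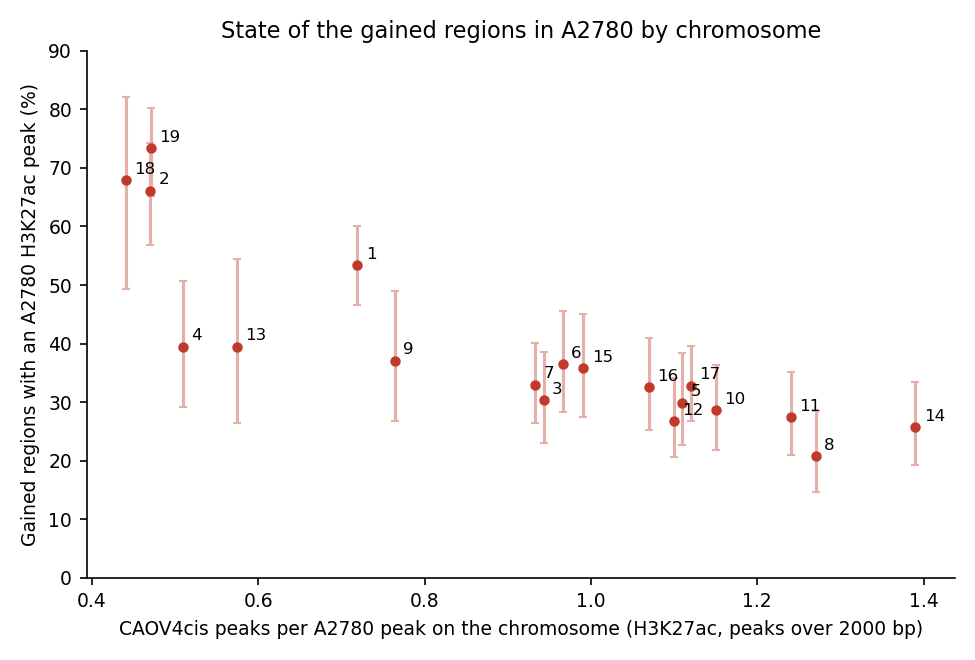
Share of gained regions with an A2780 H3K27ac peak in percent (vertical, with 95% Wilson intervals) against the number of CAOV4cis peaks over 2000 bp per such A2780 peak (horizontal), for the 19 chromosomes, each labelled with its number. Chromosomes 2, 18 and 19 lie at the upper left with 66.1% to 73.4%, and those with a ratio of 1 or more lie at 20.8% to 32.8%.

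Without chromosomes 2, 18 and 19, a setting chosen after seeing the data, 2129 gained regions remained. Of these, 33.0% had an A2780 and 29.6% an A2780cis H3K27ac peak, 29.0% one with shMBD3.26 and 26.9% one with shMBD3.232. The share that was A2780cis-only was then 4.65% and the share A2780-only 8.03%. Without the same chromosomes, all regions over 2000 bp had a peak in 56.6%, 54.1%, 53.7% and 52.0% in these lists, and lost regions in 35.1%, 33.0%, 32.2% and 31.8%. Gained regions thus remained below all regions in these 4 lists, and the order of the pair states was the same. The gained share of all regions over 2000 bp itself varied less, with 149 of 1194 on chromosome 11 as the lowest and 112 of 570, or 19.6%, on chromosome 2 as the highest. Gained regions outnumbered lost ones on 13 of the 19 chromosomes.

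Gained regions clustered along the chromosomes to a small degree. In the order of all regions over 2000 bp, the next region was also gained for 461 of 2394 gained regions, or 19.3% (17.7% to 20.9%), against 15.4% over all regions. After a lost region the next was gained in 12.8% and after a common region in 15.1%. The difference between gained and all other regions was 4.55 points (2.90 to 6.28). Averaged over the gained regions, the gained share of their own chromosome was 15.7%, which is below the lower bound of 17.7% for gained regions. Gaps were split at 100 kb and at the distance over which enhancer peaks are commonly stitched into clusters, which is the default of the ROSE tool. Up to the stitching distance the share was 19% after a gained and 10.5% after a lost region, and from there to 100 kb it was 20.6% and 12.9%. Over 100 kb the shares were 17.4%, 16.4% after lost and 16.4% after common regions. Lost regions followed each other in 19.6%, against a share of 13.5% of all regions, which is a wider distance than that of gained regions. These positions come from the lists that chose the regions and are a description.

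**Figure D5:**
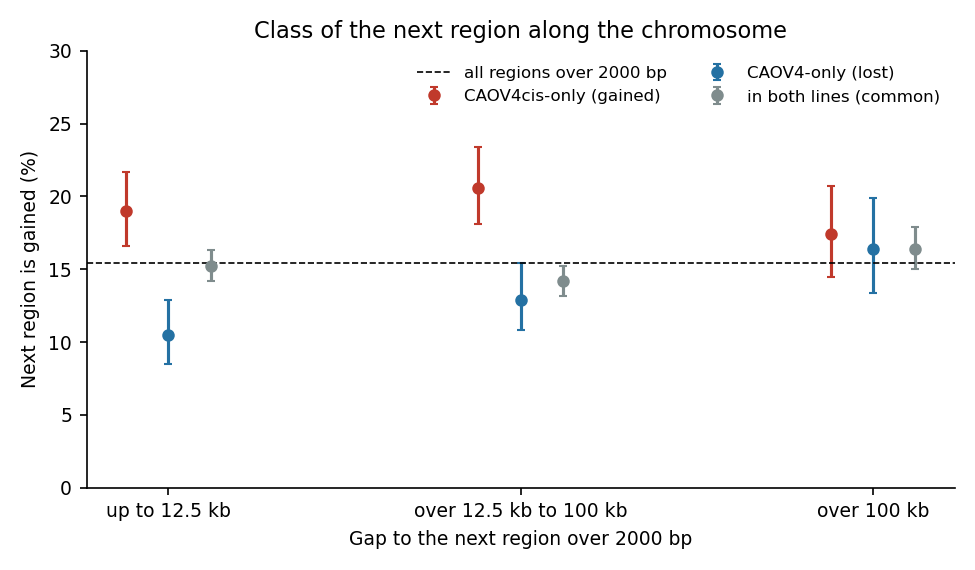
Share of regions whose next region over 2000 bp is gained (percent, with 95% Wilson intervals), by class of the first region and gap between them; the dashed line is the share over all regions, 15.4%. Up to 100 kb the gained regions lie above the line at 19% and 20.6% and the lost regions below it, and over 100 kb the 3 classes lie at 16.4% to 17.4%.

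Most gained regions stood alone between regions of another class. There were 1568 runs of 1 gained region, 293 of 2, 59 of 3, 14 of 4 and 2 of 5. A run of 5 on chromosome 4, chr4:37534201-37665800, spanned 132 kb, whereas the run of 5 on chromosome 1, chr1:100730401-108143400, spanned 7413 kb and ended in the region that lay inside broad A2780 and shRNA peaks. The distance to the nearest other gained region had a median of 96.4 kb, against 109 kb between lost regions, which were fewer, with 2092 against 2397. Another gained region lay within the stitching distance of 15.3% of gained regions and within 1 Mb of 89.9%. For lost regions these shares were 15.4% and 89.5%, so gained regions were not packed more closely by these measures. Neighbouring gained regions often shared their state: of the 461 pairs, 97 both had an A2780 peak, 240 both lacked one and 124 were split. After a gained region with an A2780 peak, the next had one in 61.4% of 158 pairs, and after one without, in 20.8% of 303. Up to the stitching distance these shares were 62.0% of 50 and 15.6% of 122, and over 100 kb they were 53.3% of 45 and 30.9% of 55. The share over all gained regions was 37.1%, and between chromosomes it ran from 20.8% to 73.4%. Pairs of lost or common regions were not examined, so shared state is not shown to be particular to gained regions.

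Stitching placed 366 gained regions in 172 clusters of at least 2, or 15.3% (13.9% to 16.8%), and 15.4% of lost regions in such clusters. Only 21 clusters held 3 or more gained regions, and the largest held 4. This was chr17:80622401-80657800, whose members of 6200, 2600, 2600 and 3200 bp covered 14.6 kb. All 4 of them met an A2780 H3K27ac peak and 2 met a peak in A2780cis and with each shRNA, but A2780 peaks covered only 23.2% of their length. The clusters of 3 with the most gained length were empty in all 6 lists. On chromosome 8, chr8:102556401-102580800 held members of 6600, 8000 and 2200 bp and 16.8 kb of gained length. On chromosome 12, chr12:116451801-116478200 held members of 7000, 2200 and 3800 bp and 13.0 kb.

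At the scale of 1 Mb, 1057 of the 1742 windows with a region over 2000 bp held a gained region. In 338 windows there were at least 3, and these held 1457 gained regions, or 60.8%. For comparison, 269 windows held at least 3 lost regions, of which there were 2092 against 2397 gained ones. The share of all regions over 2000 bp that lay in such windows was not examined, so the 60.8% has no background. Gained and lost regions occurred in the same 619 windows, which is 58.6% of the windows with a gained and 67.6% of those with a lost region. Over all 1742 windows, 916 held a lost and 1057 a gained region, which is the background of these shares. Windows were ranked by the number of gained regions and not by their share, which was 15.4% over all regions over 2000 bp. The window with most gained regions, chr12:54000001-55000000, held 12 among 45 regions, or 26.7%, with 5 lost ones. Of its 12, 6 had an A2780 peak, 4 an A2780cis peak, 5 a peak with shMBD3.26 and 6 with shMBD3.232. The adjoining window chr12:53000001-54000000 held 11 of 47, or 23.4%, and 5 of the 11 had an A2780 and 4 an A2780cis peak. The next, chr17:73000001-74000000, held 10 of 56, or 17.9%, which is near the share over all regions. Of its 10, 5 had an A2780 and 2 an A2780cis peak.

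The 10 widest gained regions repeated the division into empty and shared. At 7 of them no A2780-lineage list held a peak of either mark: chr5:32247201-32257600 and chr16:71615401-71625800, both of 10.4 kb, chr2:101856401-101866400 of 10 kb, chr6:16996601-17005600 and chr17:76522001-76531000 of 9 kb, chr11:119457601-119466200 of 8.60 kb and chr1:182304401-182312600 of 8.20 kb. Those on chromosomes 2, 6, 11 and 17 had a CAOV4 peak within 1.60 kb, and those on chromosomes 1, 5 and 16 at 10.6 to 15.4 kb. The other 3 had a peak in all 4 H3K27ac lists. At chr1:167233401-167243800, of 10.4 kb and 39.0 kb from a CAOV4 peak, A2780 peaks covered 67.3%, A2780cis 53.8%, shMBD3.26 28.8% and shMBD3.232 32.7%. At chr16:53083801-53092600 they covered 75%, 90.9%, 72.7% and 56.8%, and H3K9ac covered 36.4% in A2780 and 54.5% in A2780cis. At chr14:96972601-96981800 they covered 4.35%, 4.35%, 19.6% and 39.1%, with no H3K9ac.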

How the data were processed

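H3K27ac was profiled in 6 and H3K9ac in 2 conditions of EOC lines by ChIP-seq of mononucleosomes with a D. melanogaster spike-in of 5%, after a wash with the deacetylase inhibitor Trichostatin A. According to their methods and processing notes, the authors aligned reads with Bowtie2 to GRCh37 (hg19), quantile normalised the data and called peaks per sample with MACS2; the versions are not given in the sources used here. They deposited the start and end of each peak with a score column that holds only 0 and carries no information. The 8 input samples have no list and were not analysed here. The depth of a library is unknown.

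Peaks of CAOV4 and CAOV4cis were merged at an overlap of 1 bp, and merged regions over 2000 bp were looked up in the 6 A2780-lineage lists at the same overlap. Gained regions up to 12.5 kb apart were stitched. The regions named were the 10 widest gained regions, the widest of each state, and the 3 clusters and 3 windows of 1 Mb with most gained regions. Members and lists were chosen with earlier results of these data known. The alternatives were a 50% overlap, 5 kb of tolerance, minimum widths of 1000 and 3000 bp, equal numbers of widest peaks and stitching at 5, 25 and 100 kb. Genes near the regions were not analysed, since no annotation of the build was used. Calculations used Python 3.11.15, numpy 2.4.6 and pandas 2.3.3, with figures from matplotlib 3.10.9. The merging was checked by removing peaks over 2000 bp from a copy of the CAOV4 list and recovering them as gained regions.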

Additional observations from a re-analysis of the deposited data

How the results depend on the processing

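Each value rests on 1 library per line and on listed peaks of unknown height and depth, so an absent peak may be signal under the authors' threshold, and the lists leave out chromosomes 20 to 22 and the ends of others. No paired analysis was possible because each condition has 1 library and the labels give no replicate numbers. Of 123 values recomputed, 57 were classed as unchanged and 66 as moved. A share was classed as moved where it left its main interval. The number of gained regions has no interval. It was classed as unchanged at 2826 with a CAOV4 partner only at 50% of the shorter peak, beside 2397. Without chromosomes 2, 18 and 19 it was 2129 and classed likewise, although both counts differ clearly from 2397. The cause was not tested beyond what each setting itself changes. Use of all standard chromosomes moved none. Cutting both CAOV4 lists to the same number of widest peaks removes only narrow peaks of CAOV4cis and could not change the gained regions, so it is no check of them.

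The number of gained regions was 1424 with no CAOV4 peak within 5 kb, 5202 over 1000 bp and 1050 over 3000 bp. With no CAOV4 peak within 5 kb, the share with a peak was 36.2% with shMBD3.26, 27.5% for H3K9ac in A2780 and 25.9% in A2780cis. In that setting 6.67% were A2780-only, 3.51% were in A2780 and with neither shRNA, 10.5% were in a stitched cluster, and the next region was gained for 17.0%, beside 9.14% over all regions. With a CAOV4 partner only at 50% of the shorter peak, the shares were 39.5% in A2780, 35.8% in A2780cis, 33.2% with shMBD3.232 and 25.3% for H3K9ac in A2780cis, and 18.4% were in a stitched cluster.

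Over 1000 bp, the H3K27ac shares were 31.5% in A2780, 28.7% in A2780cis, 26.9% with shMBD3.26 and 25.6% with shMBD3.232, and the H3K9ac shares were 20.3% in A2780 and 18.2% in A2780cis. There 5.31% were A2780cis-only, 0.807% had both shRNAs and no A2780 peak, 22.7% were in a cluster, and the next region was gained for 26.3%, beside 24.2% over all regions. Over 3000 bp, the same lists gave 42.1%, 38.7%, 38.2% and 35.9% for H3K27ac and 28.3% and 26.6% for H3K9ac. There 0.190% had both shRNAs and no A2780 peak, 7.24% were in a cluster, and the next region was gained for 11.7%, beside 9.26%.

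When a peak had to cover 50% of the region, the shares were 25.9%, 27%, 22.0% and 22.5% for H3K27ac and 15.2% and 16.8% for H3K9ac, again in the order A2780, A2780cis, shMBD3.26 and shMBD3.232. Then 4.88% were A2780-only, 6.01% A2780cis-only, 3.84% in A2780 and with neither shRNA, and 0.793% with both shRNAs and not in A2780. With any peak within 5 kb, the shares rose to 50.7%, 46.4%, 46.4% and 42.8% for H3K27ac and 40.2% and 35.5% for H3K9ac, and 0.793% had both shRNAs and no A2780 peak. With the A2780-lineage H3K27ac lists cut to an equal number of widest peaks, the share was 31.7% in A2780 and 30.3% with shMBD3.26, with 5.13% A2780-only, 6.30% A2780cis-only, 2.92% in A2780 and with neither shRNA, and 1.29% with both shRNAs and not in A2780. Stitching at 5, 25 and 100 kb placed 7.59%, 25.1% and 51.2% in clusters. Without chromosomes 2, 18 and 19, added after seeing the data, the shares were 33.0%, 29.6%, 29.0% and 26.9% for H3K27ac and 21.7% and 20.3% for H3K9ac.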
